A study of Mus musculus with 80 samples.

Results

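Actn3, Casq1 and Mylpf are 3 genes of fast skeletal muscle fibres, and their RNA was followed in skeletal muscle of 40 C57BL/6 mice of 17 to 743 d of age. They were found by symbol in the annotation of the array platform, on either of the 2 filters of spotted clones. Each gene has 1 clone, so the results rest on 3 of 16896 clones and on 3 of 7151 named genes. Actn3 (gene identifier 11474) is on filter A, and Casq1 (12372) and Mylpf (17907) are on filter B.

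Fast fibres contract quickly and draw on stored fuel, and they make up most of the limb muscle of a mouse. Actn3 encodes the alpha-actinin of their Z-disc, the plate that anchors and crosslinks the thin filaments of neighbouring sarcomeres. Casq1 encodes calsequestrin of the sarcoplasmic reticulum, which binds the calcium that is held in store between contractions. Mylpf encodes the regulatory light chain that sits on the neck of the fast myosin heavy chain and tunes its action once phosphorylated.

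The mice, 20 female and 20 male, had free access to regular feed until they were killed, and no genetic change or other treatment is given for any group. The windows of age were 17-21 d (3 females, 2 males), 33-44 d (2 females, 3 males), 169-194 d, 476-499 d and 704-743 d (5 females and 5 males each). From total RNA of every animal, cDNA was made and labelled with radioactive phosphorus, then hybridised to both filters, so that 80 arrays were measured. The deposited value is a z-score, the distance of a spot from its array's mean in SDs of that array, and a difference between groups is given below in array SD. The log base is not given in the sources used here, so no fold change can be stated, and the scores do not show how far a spot stood above background. The muscle that was taken is not named in the labels.

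Arrays of one filter resembled each other closely, with a median correlation between arrays of 0.971 on filter A and 0.976 on filter B. The array least like the others was on both filters that of male 476-499 d replicate 5, with a median correlation of 0.941 and 0.944. One leading component carried 43.6% of the variance between arrays of filter A and 36.6% of that of filter B. Its mean on filter A was -14.7 ± 1.41 (SD, n = 5) at 17-21 d and 4.77 ± 10.7 (n = 10) at 169-194 d. Single older mice lay in or beyond the range of the youngest, and male 476-499 d replicate 5 stood at -24.1 on filter A and -23.5 on filter B. For the mouse called male 704-743 d replicate 2, the label fields differ in the age they give. Its title and characteristics give 714 d and were used, while its description repeats the label of a 43 d male. None of the 8 marker genes of skeletal muscle fibres that were listed has a named clone, so the tissue was not checked by them.

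All 3 clones were bright for their filter. By its mean over the mice, Actn3 stood at percentile 89.5 of the clones of its filter, Mylpf at 89.1 and Casq1 at 78.7. Levels of different clones were not set against each other, since a spot's brightness also depends on the clone.

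The reference sequences used here held no promoter entry for Actn3. For the other genes, Casq1 and Mylpf, the 250 bases before the start are shown. They are from RefSeq on GRCm38.p6, at chr1:172219896-172220145 on the minus strand for Casq1 and at chr7:127211358-127211607 on the plus strand for Mylpf. Capitals mark E-boxes, the CANNTG sites that myogenic factors such as MyoD and myogenin can bind.
Casq1: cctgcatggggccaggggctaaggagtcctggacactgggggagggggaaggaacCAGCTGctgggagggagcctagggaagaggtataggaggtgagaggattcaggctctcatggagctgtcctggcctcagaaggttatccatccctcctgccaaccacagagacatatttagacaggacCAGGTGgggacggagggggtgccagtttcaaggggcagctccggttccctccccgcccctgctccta
Mylpf: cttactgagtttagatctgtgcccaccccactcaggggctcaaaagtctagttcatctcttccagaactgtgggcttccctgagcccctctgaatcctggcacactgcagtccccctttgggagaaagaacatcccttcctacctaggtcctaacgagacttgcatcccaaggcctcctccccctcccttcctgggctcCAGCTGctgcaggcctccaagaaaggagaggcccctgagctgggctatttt
Casq1 has 2 E-boxes in this stretch and Mylpf has 1, counted on both strands, and both genes hold the form CAGCTG. Of 32851 such windows in the table, 66.2% hold an E-box. Neither stretch matched the M-CAT letters CATTCC (12.6% of windows), the TATA letters TATAAA (12.4%), the MEF2 site (1.69%) or the CArG box (1.47%), searched on both strands.

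Casq1 and Mylpf were highest at 17-21 d and lower in adults, and the means of Actn3 were highest in the youngest and the oldest mice. The test of any difference between the 5 windows passed for all 3 clones. The moderated F was 9.27 for Casq1 (limma, adjusted p = 0.0215), 7.36 for Mylpf (0.0445) and 6.66 for Actn3 (0.0497). Of all clones, 0.9% passed this test, and 33% had an unadjusted p under 0.05. The calls for Actn3 and Mylpf lay close to the threshold. Leaving out 1 mouse at a time, Actn3 still passed in 10 of 40 fits, Mylpf in 20 and Casq1 in 35. The 5 fits that ended the call of Casq1 were those without 1 of the 5 mice of 17-21 d. Without male 17-21 d replicate 2, the adjusted values were 0.237 (Actn3) and 0.242 (Casq1 and Mylpf). Without male 704-743 d replicate 2, whose label fields disagree, the F of Actn3 was 5.91 (adjusted p = 0.0612).

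**Figure D1:**
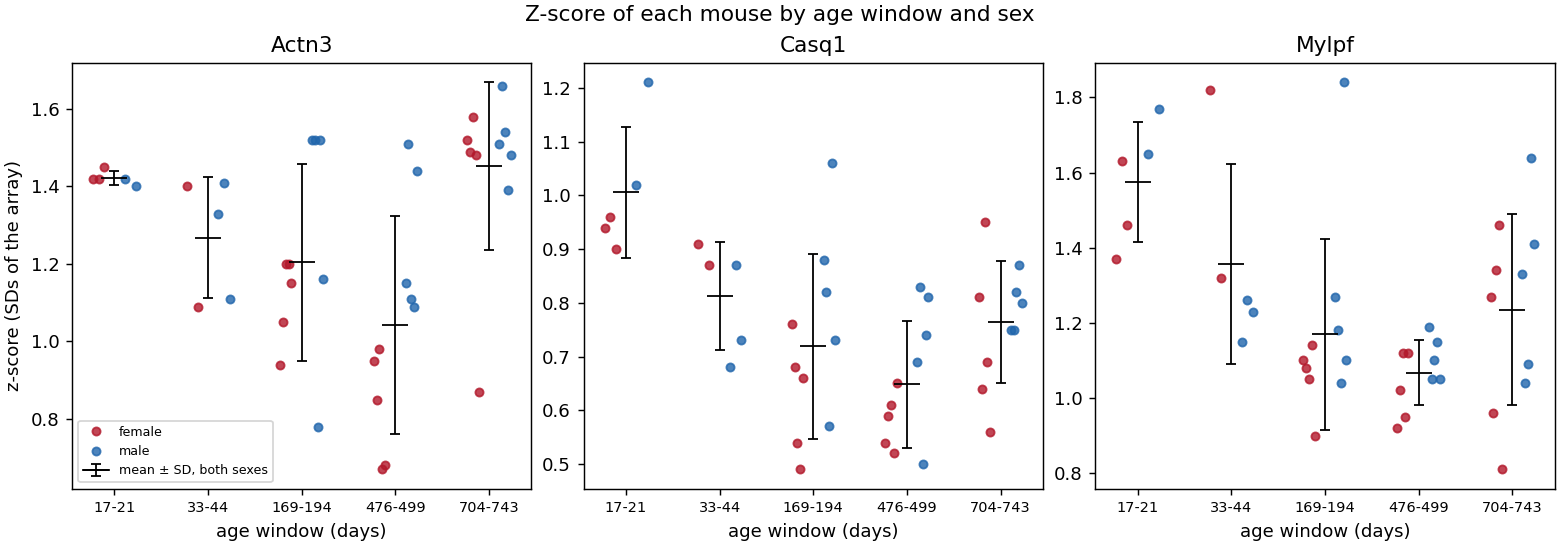
Z-score (SDs of the array, vertical axis, not starting at 0) of each mouse by age window in days (horizontal axis) for the 3 clones, with red points for females, blue points for males, and black bars for the mean ± SD of both sexes. The 5 mice of 17-21 d sit between 1.40 and 1.45 for Actn3, and the 5 females of 476-499 d between 0.67 and 0.98, below all 5 males.

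The myosin light chain gene Mylpf stood at 1.37, 1.46 and 1.63 in the females of 17-21 d and at 1.65 and 1.77 in the males. At 33-44 d the females were at 1.32 and 1.82 and the males at 1.15, 1.23 and 1.26. Across the 10 mice of 169-194 d the lowest was 0.90, the median 1.10 and the highest 1.84. Thus 9 of the 10 adults lay below every mouse of 17-21 d, and 1 lay above them all, male 169-194 d replicate 4. At 476-499 d the scores were in a narrow range from 0.92 to 1.19, with a median of 1.075. They spread out again at 704-743 d, from 0.81 to 1.64 with a median of 1.30. The means of the 5 windows in order of age were 1.58 ± 0.160 (SD, n = 5), 1.36 ± 0.267 (n = 5), 1.17 ± 0.254 (n = 10), 1.07 ± 0.0862 (n = 10) and 1.24 ± 0.254 (n = 10).

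Mylpf fell from 17-21 d to 169-194 d, by 0.428 array SD (SE 0.106, limma, adjusted p = 0.011). Here 36.7% of all clones were called and 19.3% were called lower, so that a call was common in this comparison. The calls split into 2930 higher and 3269 lower, and into 3520 and 2415 with each array scaled by its median and MAD. In order of size of the mean, 17-21 d came first, then 33-44 d, 704-743 d, 169-194 d and 476-499 d. Of the neighbours in that order, the first and second means differed by more than the SD at 17-21 d but less than that at 33-44 d, and the other gaps were smaller than the larger of the SDs.

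Calsequestrin's gene Casq1 had the same order of windows by mean. At 17-21 d the females were at 0.90, 0.94 and 0.96 and the males at 1.02 and 1.21. The mice of 33-44 d lay at 0.87 and 0.91 (females) and at 0.68, 0.73 and 0.87 (males), 4 of the 5 below every younger mouse. At 169-194 d the scores ran from 0.49 to 1.06 with a median of 0.705, and 9 of the 10 adults were below all mice of 17-21 d. The exception was again male 169-194 d replicate 4, at 1.06. The lowest, median and highest scores were 0.50, 0.63 and 0.83 at 476-499 d and 0.56, 0.775 and 0.95 at 704-743 d. Window means were 1.01 ± 0.122 (SD, n = 5), 0.812 ± 0.101 (n = 5), 0.719 ± 0.172 (n = 10), 0.648 ± 0.118 (n = 10) and 0.764 ± 0.113 (n = 10) in order of age. Among neighbours in the order of size, only the gap between 17-21 d and 33-44 d was larger than both SDs.

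Casq1 fell from 17-21 d to 169-194 d, by 0.305 array SD (SE 0.0643, limma, adjusted p = 0.0106). Among all 16896 clones, it ranked 54 by p in this comparison. The fall was of like size in females (-0.307, SE 0.0846) and in males (-0.303, SE 0.0969), as it was for Mylpf (-0.433 and -0.424). No single sex passed the test for either gene (adjusted p from 0.0572 to 0.236). Both calls were lost without male 17-21 d replicate 2, the mouse with the highest scores of that window for these genes. Casq1 then stood at -0.258 and Mylpf at -0.398. Most calls over all clones were lost in that fit too, which left male 17-21 d replicate 1 as the only male of that window. With the other filter's leading component as a covariate, the fit took Casq1 to -0.178 (adjusted p = 1) and left Mylpf at -0.429 (adjusted p = 0.919), with 9 clones called on the whole of both filters. In a bulk sample, fewer cells of a type and less RNA per cell cannot be told apart.

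The alpha-actinin gene Actn3 had a different course. At 17-21 d the 3 females were at 1.42, 1.42 and 1.45 and the males at 1.40 and 1.42, an SD of 0.0179. At 33-44 d the scores were 1.09 and 1.40 in females and 1.11, 1.33 and 1.41 in males. Adults of 169-194 d scattered widely, with females at 0.94, 1.05, 1.15, 1.20 and 1.20 and males at 0.78, 1.16, 1.52, 1.52 and 1.52. Against 17-21 d, the difference was -0.216 array SD (SE 0.107, adjusted p = 0.102), which did not pass the test. The 10 mice split around the younger ones, with 7 below all of the mice of 17-21 d and 3 above them.

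At 476-499 d Actn3 was lowest. Females were at 0.67, 0.68, 0.85, 0.95 and 0.98, and males at 1.09, 1.11, 1.15, 1.44 and 1.51. The sexes did not overlap in this window, which held for 2.12% of all clones. Casq1 and Mylpf did overlap there, with females at 0.52 to 0.65 and 0.92 to 1.12 and males at 0.50 to 0.83 and 1.05 to 1.19.

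At 704-743 d Actn3 was at 1.48, 1.49, 1.52 and 1.58 in 4 females and at 0.87 in the fifth, and at 1.39, 1.48, 1.51, 1.54 and 1.66 in males. These 9 high mice lay above the mean of 476-499 d, and 4 of them above every mouse of that window. The 5 window means were 1.42 ± 0.0179 (SD, n = 5), 1.27 ± 0.157 (n = 5), 1.20 ± 0.253 (n = 10), 1.04 ± 0.282 (n = 10) and 1.45 ± 0.216 (n = 10). The oldest and the youngest window were therefore the top 2 and differed by less than the SD of the oldest. The other 3 means followed in order of age, and neighbours among them differed by less than either SD.

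From 476-499 d to 704-743 d, Actn3 differed by 0.409 array SD (SE 0.0864, 95% interval 0.234 to 0.584). Its unadjusted p of 3.69e-05 in limma was the smallest of all 16896 clones, but the adjusted p was 0.527, so the difference did not pass. No clone was called in this comparison by limma (0%), while 8.35% had an unadjusted p under 0.05, 4.85% of all clones in the higher direction. The difference was 0.562 (SE 0.122) in females and 0.256 (SE 0.122) in males. The gap between those values was 0.306 (SE 0.173, limma, adjusted p = 0.364) and did not pass (0% of clones called, 15.7% with an unadjusted p under 0.05).

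Because the list number in the titles runs through the mice in stretches of 8, each with 1 female and 1 male of every adult window, the step could be read within stretches. Actn3 was higher at 704-743 d than at 476-499 d in 5 of 5 stretches, by 0.115 to 0.555, and in 10 of 10 pairs of mice of the same sex. Casq1 was higher in 3 of 5 stretches and in 7 of 10 pairs, and Mylpf in 4 of 5 stretches and in 6 of 10 pairs. These counts rest on the same scores as the test above and add no separate evidence. The share of all clones with such counts was not taken. What the list number stands for is not given in the labels.

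Among the alternatives, 2 gave Actn3 a call in this step. With array weights estimated by limma the difference was 0.460 (adjusted p = 0.00339), 1 of 4 clones then called. Without female 704-743 d replicate 5, the 1 low old female, it was 0.474 (adjusted p = 0.0113). Without male 704-743 d replicate 2, whose label fields disagree, it was 0.391 (adjusted p = 0.513). Over the 40 fits that each left out 1 mouse, the difference ran from 0.385 to 0.474. It was smaller with the other filter's leading component as a covariate (0.334) and with median and MAD scaling (0.361), without a call in either.

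Casq1 and Mylpf were also higher in the oldest mice than at 476-499 d, without passing the test. The differences were 0.116 (SE 0.0518, unadjusted p = 0.0316) for Casq1 and 0.168 (SE 0.0855, unadjusted p = 0.0574) for Mylpf in limma, both with an adjusted p of 0.527. Against 169-194 d, the oldest mice differed by 0.248 (SE 0.0864, adjusted p = 0.716) for Actn3, 0.045 (SE 0.0518) for Casq1 and 0.065 (SE 0.0855) for Mylpf (limma, 0% of clones called, 5.08% with an unadjusted p under 0.05). The slope on age from 169 d was 0.0413 array SD per 100 d (SE 0.0205) for Actn3, 0.00674 for Casq1 and 0.0106 for Mylpf, with adjusted p from 0.780 to 0.834 (limma, 0% called, 3.81% unadjusted).

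**Figure D2:**
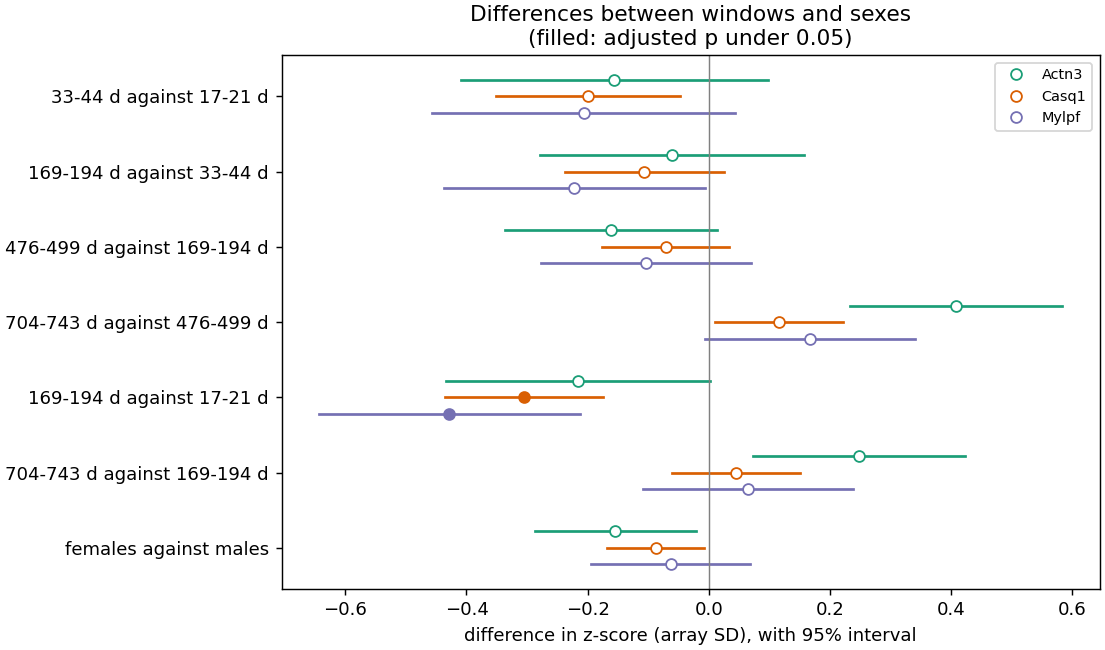
Differences in z-score (array SD, horizontal axis) with 95% intervals for 7 comparisons (rows), with 1 colour per gene and filled points for an adjusted p under 0.05. The filled points are the fall of Casq1 (-0.305) and Mylpf (-0.428) from 17-21 d to 169-194 d, and the open point farthest to the right is Actn3 at 704-743 d against 476-499 d (0.409).

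The shorter steps of growth did not pass for any of the 3 clones. From 17-21 d to 33-44 d the differences were -0.156 for Actn3, -0.199 for Casq1 and -0.207 for Mylpf (adjusted p from 0.263 to 0.444; 0.0237% of clones called). From 33-44 d to 169-194 d they were -0.0602, -0.106 and -0.222 (adjusted p from 0.832 to 0.890; 0.00592% called). From 169-194 d to 476-499 d they were -0.161, -0.071 and -0.103 (limma, adjusted p of 1 for each; 0% called, 0.752% unadjusted). All of these were below 0, while the 3 differences of the last step were above 0.

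The young scores of Casq1 and Mylpf were ordered differently in the sexes, without passing the test. In males, Casq1 and Mylpf stood at -0.355 and -0.497 from 17-21 d to 33-44 d, and at 0.052 and 0.0727 from there to 169-194 d. In females, the same genes stood at -0.0433 and 0.0833 in the first step and at -0.264 and -0.516 in the second. The difference between the sexes was 0.312 (SE 0.150) for Casq1 and 0.580 (SE 0.247) for Mylpf in the first step, and -0.316 (SE 0.129) and -0.589 (SE 0.212) in the second. None passed limma's test, with unadjusted p from 0.00887 to 0.0446 and adjusted p from 0.963 to 0.985. In either step 0% of clones passed, and 3.91% and 2.87% had an unadjusted p under 0.05. For Actn3 the differences between the sexes were -0.0583 (SE 0.249) and -0.154 (SE 0.214), also without passing. The moderated F of limma for any difference between the sexes in the 4 steps passed for none of the 3 clones. Its unadjusted p was 0.196 for Actn3, 0.157 for Casq1 and 0.0942 for Mylpf, with an adjusted p of 0.928 for each. For Mylpf the first step's difference was 0.330 without female 33-44 d replicate 1 and 0.830 without female 33-44 d replicate 2, and the second step's was -0.339 and -0.839. These groups held only 2 or 3 mice of each sex below 169 d.

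Over all windows, females were lower than males, without passing the test. The differences were -0.154 for Actn3 (SE 0.0654, limma, adjusted p = 0.823), -0.0875 for Casq1 (SE 0.0392, 0.823) and -0.0629 for Mylpf (SE 0.0647, 0.830). The value for Mylpf was -0.0129 without female 33-44 d replicate 2 and -0.113 without female 33-44 d replicate 1. Female means were 1.17, 0.714 and 1.19, and male means 1.35, 0.807 and 1.28 (n = 20 each). Limma called 0% of clones, and 2.69% had an unadjusted p under 0.05.

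The 3 genes moved together from mouse to mouse. Over the 40 mice, Casq1 and Mylpf, which share filter B, had a Pearson r of 0.792 and a Spearman rho of 0.758. Actn3, on the other filter, had an r of 0.630 (rho 0.610) with Casq1 and of 0.491 (rho 0.427) with Mylpf. Permutation p-values (100000 draws, two-sided, adjusted over 6 relations) were 3e-05, 3e-05 and 0.00168 for r and 3e-05, 7.5e-05 and 0.00788 for rho, where 1e-05 is the smallest unadjusted value the draws can give. Without the 2 mice farthest from the median of the first gene, r was 0.724, 0.607 and 0.473. The draws shuffled all 40 mice freely, across sexes and windows, so these p-values do not set the genes apart from other clones. On filter B, 2.95% of clone pairs 100 numbers apart had an r over 0.75.

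Mice of 1 sex and window share part of their score. Among deviations from the mean of each sex and window, r was 0.555 for Casq1 with Mylpf, 0.532 for Actn3 with Casq1 and 0.351 for Actn3 with Mylpf. Within the stretches of list numbers r ran from 0.777 to 0.872, from 0.546 to 0.798 and from 0.133 to 0.853. The same animals stood out for several genes. Female 704-743 d replicate 5 was the lowest mouse of its window for all 3, at 0.87, 0.56 and 0.81, and male 169-194 d replicate 4 shared or held the highest score of its window for all 3, at 1.52, 1.06 and 1.84.

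**Figure D3:**
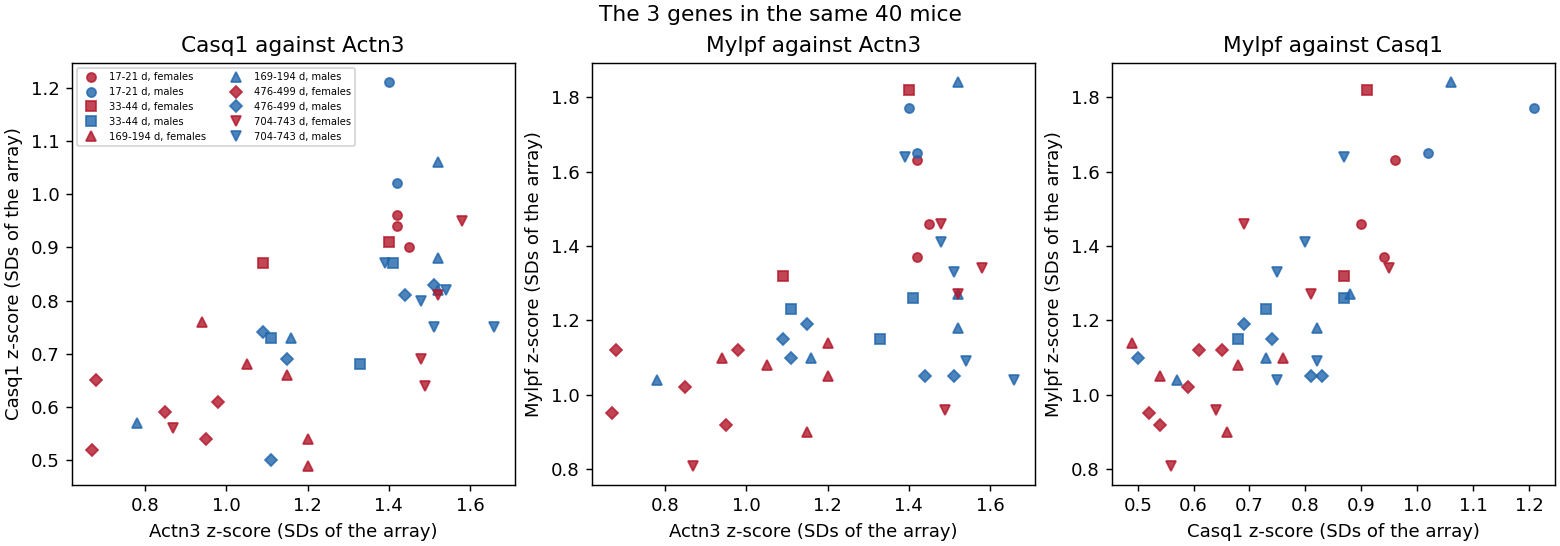
Z-scores (SDs of the array) of 2 genes at a time in the same 40 mice, with colour for sex and marker shape for age window. Casq1 and Mylpf, measured on the same filter, lie closest to a line (r = 0.792), and Actn3 with Mylpf scatter most (r = 0.491).

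The leading component of the arrays also moved with these genes. Measured on the filter that does not hold the clone, it correlated with Casq1 at r = -0.721, with Actn3 at -0.640 and with Mylpf at -0.393 over 40 mice (rho -0.728, -0.615 and -0.406; adjusted permutation p of 3e-05, 3e-05 and 0.0126 for r and of 3e-05, 6e-05 and 0.00987 for rho). Without the 2 farthest mice r was -0.765, -0.628 and -0.450. Within groups of sex and window the values were -0.551, -0.492 and 0.00128. Its part in the results for Casq1 and Actn3 was not tested beyond the covariate fit.

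Clones at certain distances in clone number, several multiples of 22 among them, also moved together, and all 3 genes have such neighbours. On both filters, clones 22 numbers apart correlated at a mean r of 0.471 (A) and 0.470 (B) over the 40 mice, and clones 528 apart at 0.449 and 0.436. At distances of 11 and 33 the mean r was only 0.101 and 0.0681 (A) and 0.0945 and 0.0664 (B), and between adjacent clones it was 0.301 and 0.265. At 264, also a multiple of 22, the mean r was 0.178 and 0.173, below that of adjacent clones. The median over distances of 1 to 1199 was 0.0396 and 0.0527. Among pairs 22 apart, 12.9% (A) and 9.29% (B) had an r over 0.9.

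Around Actn3, the clones of Casz1 (44 numbers below), Atf3 (22 above) and Vps13d (22 below) had an r of 0.970, 0.942 and 0.800 with it. Their differences from 476-499 d to 704-743 d were 0.425, 0.411 and 0.199, beside 0.409 for Actn3 itself. Other clones at multiples of 22 were less like it. Those 66 below and 44, 66 and 88 above had an r of -0.00136, 0.451, -0.244 and -0.374 with Actn3. In the same step they differed by -0.009, 0.095, 0.046 and -0.021. The clone 88 below had an r of 0.494 and differed by 0.165. Ranked by p over all clones in that step, Actn3 was at 1, Atf3 at 3 and Casz1 at 4, and these 3 with 1 unnamed clone were the 4 called with array weights. Casz1 and Atf3 encode transcription factors and Vps13d a lipid transfer protein. The part of this shared movement in the result for Actn3 was not tested.

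Mylpf had the same kind of company. C86187 (22 numbers above), Dxo (44 above) and Srsf1 (66 above) had an r of 0.938, 0.826 and 0.954 with it, and from 17-21 d to 169-194 d they differed by -0.397, -0.0908 and -0.393. On the other side, the clones 22 and 44 below had an r of -0.0843 and -0.0476. Unnamed clones 528 and 1056 below had an r of 0.929 and 0.749 and fell by 0.342 and 0.374 in the same comparison (limma, adjusted p = 0.0169 and 0.011). Casq1 was less tied to its numbered neighbours, with an r of 0.748 to the clones 44 below and 22 above, and of 0.770 to that 88 above. From 17-21 d to 169-194 d these clones differed by -0.407, -0.319 and -0.401 (limma, adjusted p = 0.011, 0.0134 and 0.0113), beside -0.305 for Casq1. To the clones 22 below and 44 above r was 0.154 and 0.114, and they differed by 0.0432 and 0.014. The part of the shared movement in the falls of Mylpf and Casq1 was not tested.

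**Figure D4:**
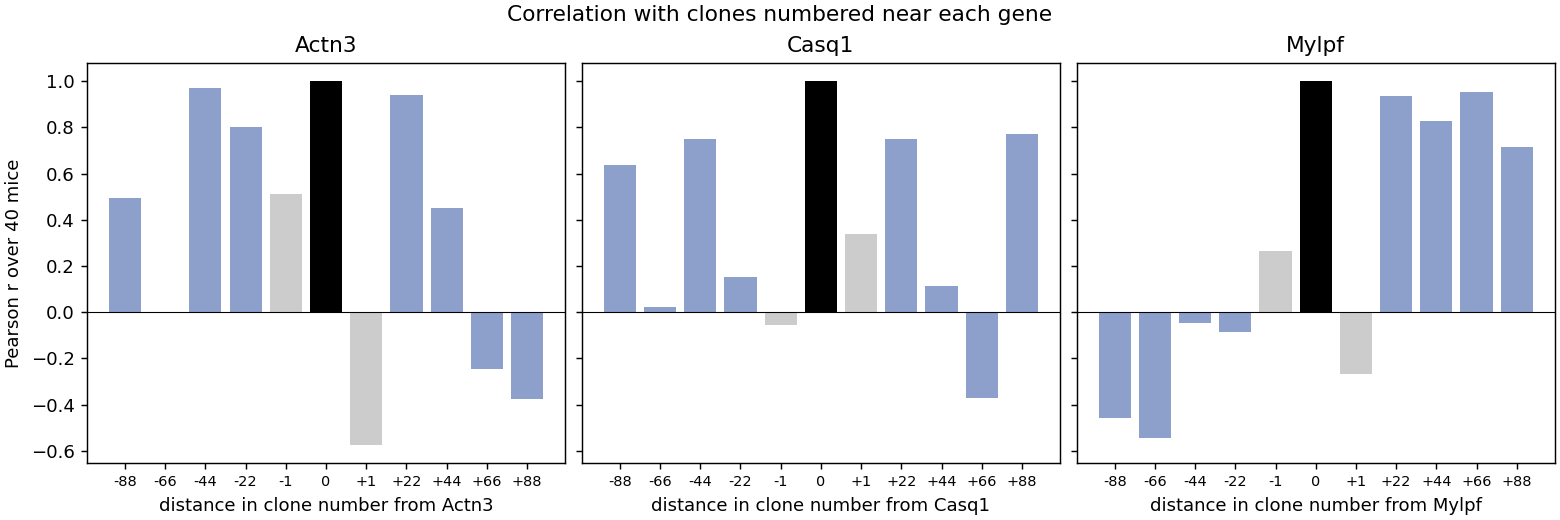
Pearson r over 40 mice (vertical axis) between each gene's clone (black, r of 1) and clones at the given distance in clone number (horizontal axis), with blue bars for multiples of 22 and grey bars for the next numbers. Bars over 0.9 stand at -44 and +22 for Actn3 and at +22 and +66 for Mylpf, and no bar of Casq1 passes 0.9.

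The genes most like each of the 3 were chosen by Pearson r over the 40 mice, which share their arrays, and are a description. For Actn3 the 5 on its own filter were Casz1, Atf3, Dppa2, Vps13d and Aldoa, with r from 0.785 to 0.970, and 3 of them lay at a multiple of 22 in clone number. On the other filter they were Tpm1, Ibtk, Fbxl7, Id2 and Mtx3 (r from 0.825 to 0.878). All 5 share 1 remainder after division of their clone number by 22, and Tpm1, a tropomyosin of the thin filament, led them at 0.878. Tpm1 was higher at 704-743 d than at 476-499 d, by 0.279 (SE 0.0769, limma, adjusted p = 0.527), and the rest of these 5 by 0.19 to 0.246. Their choice by likeness to Actn3 over the same mice favours a shared direction, so this is no separate evidence.

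For Casq1 the 5 on its own filter were Pdia6, Slc30a9, Sgtb, Myl6 and Tpm1 (r from 0.861 to 0.906), 4 of which share 1 remainder. Actb, Smtn, Anxa7, Rnf14 and Gm2a followed it on the other filter (r from 0.791 to 0.826), with cytoplasmic actin (Actb) at the top. For Mylpf the 5 on its filter, Myl12b, Srsf1, Rad21, C86187 and Palld (r from 0.927 to 0.968), all lay at a multiple of 22. Those on the other filter were Tmem183a, Zmynd8, Cdk8, Gm2a and Cst3, with r from 0.672 to 0.767.

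Of the 21 genes listed for fast fibres, 5 had a named clone, the 3 genes above with Fbp2, the muscle fructose bisphosphatase, and Tpm1. From 17-21 d to 169-194 d, where 36.7% of all clones were called, all 5 were lower and 4 passed, Fbp2 at -0.233 (SE 0.0655, adjusted p = 0.0128) and Tpm1 at -0.329 (SE 0.0955, 0.0137) among them. Their median of -0.305, beside 0.043 over all genes, was the value of Casq1 itself. With each array scaled by its median and MAD 3 passed, Tpm1 standing at -0.226 (adjusted p = 0.0833), and with the component covariate none did and the median was -0.0874. From 476-499 d to 704-743 d all 5 were higher and none passed, with a median of 0.168, the value of Mylpf itself, beside -0.014 over all genes. Since 3 of the 5 are the genes described above, these medians add little of their own. In the slow fibre list 5 of 20 genes were measured. From 17-21 d to 169-194 d Tpm3, the slow tropomyosin, fell by 0.514 (adjusted p = 0.0252) and Atp2a2, the slow calcium pump, rose by 0.218 (0.0464). Actn2, the alpha-actinin of all striated fibres, stood at -0.364 (0.0535), and the median was -0.0728.

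Partners of the 3 genes were listed by role, and their counts of calls stand beside the 36.7% of all clones called in the same comparison. For the calcium store of Casq1, 7 of 20 genes were measured, and 1 rose and 2 fell from 17-21 d to 169-194 d with a median of 0.0585. Fkbp1a, which binds the release channel, rose by 0.138 (adjusted p = 0.0469). Calm2, a calmodulin gene, fell by 0.175 (0.0172), and Jph1, which ties the store to the surface membrane, fell by 0.381 (0.0273). For the Z-disc partners of alpha-actinin, 9 of 18 were measured, 2 rose and 1 fell, with a median of -0.0295. Pdlim1 and Pdlim5, which bind alpha-actinin, rose by 0.244 and 0.296 (0.0107 and 0.0221), Pdlim5 by 0.0304 without a call under quantile normalization, and Actn1, a non-muscle alpha-actinin, fell by 0.324 (0.0204).

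The lists that follow are for the same comparison, with its 36.7% of all clones called. In the list of sarcomere and thin filament genes 4 of 20 were measured and 2 rose, the capping protein genes Capza2 (0.151, adjusted p = 0.0225) and Capzb (0.191, 0.0273). Cryab, a small heat shock protein, stood at 0.152 (0.0686), and the median was 0.151. Of the regulators of fast fibre genes 7 of 27 were measured and 1 passed. Sox6, a repressor of slow fibre genes, fell by 0.235 (0.0147). Mef2a, Mef2d, Nfatc3, Nfatc4, Tead1 and Eya2 stood between -0.069 and 0.160 without passing, and the list's median was 0.00967. Glycolysis, the fuel path that fast fibres rely on, had 15 of 21 genes measured, with 4 risen and 1 fallen and a median of -0.0572. Those that rose were Pfkm (0.260), Pgm2 (0.505), Hk1 (0.144) and Hk2 (0.114), and Aldoc fell by 0.457. Of the list of developmental genes 7 of 14 were measured and 2 rose, Igf2bp1 (0.384) and Hmga2 (0.127). Igf2 stood at 0.124 (adjusted p = 0.0802), and the median was 0.100. Under quantile normalization Calm2, Capza2, Hk1, Hk2 and Igf2bp1 did not pass, under MAD scaling Calm2, Hk2 and Aldoc did not, and none of the genes called in these lists changed sign under either. The glycolysis list counted 2 risen and 3 fallen under quantile normalization, where Aldoa (-0.444, adjusted p = 0.0291) and Gapdh (-0.388, 0.018) gained calls, and 3 risen and 0 fallen under MAD scaling. The developmental list counted 5 risen under MAD scaling. The medians of the Z-disc and glycolysis lists turned to above 0 under both (0.00326 and 0.00606 with quantile normalization) and that of the regulators to -0.0118 with quantile normalization. With the component covariate no gene of the 8 lists passed from 17-21 d to 169-194 d, and 4 of the genes called without it changed sign, Aldoc to 0.0804, Pgm2 to -0.0635, Pdlim5 to -0.0572 and Igf2bp1 to -0.0346. From 476-499 d to 704-743 d no gene of any of these lists passed in limma.

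Markers of other cell types were sparse on the filters, with 0 to 4 measured genes of 3 to 7 listed for each of 10 types. From 17-21 d to 169-194 d, 1 of 2 smooth muscle markers and the 1 measured cartilage marker fell (median of the smooth muscle markers -0.439, value of the cartilage marker -0.860). Of all clones, 36.7% were called in this comparison and 19.3% were called lower. No marker of heart, blood, immune, nerve, endothelial, skin or fibroblast cells passed, and no adipocyte marker was measured. The part of such cells in the results was not tested.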

How the data were processed

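Per the files, the authors deposited 1 score for every spot (z-scores with mean 0 and SD 1 within each array) for 8448 clones on each of 2 filters, with no missing values; no source used here gives the steps before it or its log base. Clones were named through the platform annotation, and gene identifiers through RefSeq (GRCm38.p6). Each clone was fitted within its filter by limma 3.58.1 in R 4.3.3 (lmFit, eBayes, two-sided) with 10 groups of sex and window, the sexes weighted equally. P-values were adjusted by Benjamini-Hochberg over all 16896 clones, with a threshold of 0.05. The scripts were tested on simulated data. All clones of the 3 genes are described. From each list, 1 clone per gene was used (highest mean percentile), and the 3 genes with the smallest p in the comparison described are named; Hk1, Hk2, Fbp2, Tpm1 and the regulators besides Sox6 were added after their values were seen. Like genes were the 5 named genes of each filter with the highest r. The members and the lists were chosen with earlier results of these data known. The number of arrays limits precision. Alternatives were another scaling, a filter on dim clones, array weights, other variance priors, the list-number block, a component covariate, fewer samples in the fit, and leaving out each mouse.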

Additional observations from a re-analysis of the deposited data

Results flagged for a closer look

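A mouse stood apart from the rest of its group, by the share of the group's range that separates it from the nearest mouse, in 5 of 33 groups checked. Chance alone gives about 1 in 20 for separate groups. These groups overlap, since a sex and both sexes of a window were checked, for genes measured in the same mice. The 5 are therefore not separate, and the count cannot be set against that rate. Female 704-743 d replicate 5 was the low mouse for Actn3, at 0.87, both among the females of its window and among all 10 mice. Male 169-194 d replicate 4 was the high mouse for Mylpf, at 1.84, among the males and among all 10 mice. Female 33-44 d replicate 1 was the high mouse for Mylpf, at 1.82, among the 5 mice of 33-44 d.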

How the results depend on the processing

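Among the comparisons of the 3 genes, 357 of 378 values under settings other than leaving out a mouse kept their direction and their side of the threshold. Most of these comparisons had not passed in the main fit, so this count says little about the calls. The call for any difference between windows held in 4 of 9 settings for Actn3, 7 of 9 for Casq1 and 5 of 9 for Mylpf. The called falls of Casq1 and Mylpf from 17-21 d to 169-194 d each held in 8 of 9. The test of any difference between the 5 windows was the least stable. For Actn3, Casq1 and Mylpf the call was lost with median and MAD scaling, at an F of 4.90, 5.55 and 4.08. With the other filter's leading component as a covariate it was lost at 4.58, 3.78 and 4.93. The call was also lost at 6.05 for Actn3 with quantile normalization, and at 6.18 and 6.68 for Actn3 and Mylpf without moderation. The threshold is on the adjusted p, so the F at which a call is lost differs between settings. A slope on log2 age, a test of 1 term that is not comparable in size with this F, did not pass for Actn3 and Mylpf (squared t of 0.531 and 14.0, adjusted p = 0.607 and 0.0676). Leaving out 1 mouse moved the F from 5.75 to 10.7, from 5.56 to 11.4 and from 5.12 to 11.3. From 17-21 d to 169-194 d the component covariate left Casq1 at -0.178 and Mylpf at -0.429, both without a call, and turned Actn3 to 0.00271; leaving out 1 mouse gave -0.353 to -0.258 for Casq1 and -0.498 to -0.393 for Mylpf. The covariate also turned Actn3 from 33-44 d to 169-194 d to 0.0103 (leaving out 1 mouse, -0.138 to 0.0173) and the slope of Casq1 from 169 d to -0.00193. From 476-499 d to 704-743 d, array weights gave Actn3 a call at 0.460, and leaving out 1 mouse gave 0.385 to 0.474. The covariate left Actn3 at 0.334 in that step, without a call. Differences between the sexes that passed in no setting changed sign for Casq1 in the last step (-0.0154 with MAD scaling, -0.0247 with the covariate), for Mylpf in the last step (0.0797 with array weights, -0.125 to 0.0375 leaving out 1 mouse) and for Actn3 in the first step (0.0551 with the list-number block, -0.213 to 0.0967 leaving out 1 mouse). They also did so leaving out 1 mouse for Actn3 from 33-44 d to 169-194 d (-0.309 to 0.00133) and for Casq1 from 169-194 d to 476-499 d (-0.008 to 0.115). The causes were not tested.

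Over all clones, 6199 passed from 17-21 d to 169-194 d, against 9585 with array weights, 9 with the covariate and 19 to 7297 leaving out 1 mouse. For any difference between windows the count was 152, against 237 with quantile normalization, 1248 without the dimmest clones, 8088 with array weights, 57 without moderation, 3588 with the list-number block, 10 with the covariate, 98 with log2 age and 11 to 5473 leaving out 1 mouse. The 2 or 3 mice of each sex below 169 d and the 1 clone per gene limit what these data can show.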
